A study of Mus musculus with 18 samples.

Results

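The genes of sterol and fatty acid synthesis were followed in mouse bone marrow-derived macrophages that differed in Wbp7, a histone H3 lysine 4 methyltransferase whose current symbol is Kmt2b. The set was a list of 32 genes of the pathway, chosen by name: enzymes of cholesterol synthesis, enzymes of fatty acid synthesis and desaturation, and the proteins that control both. Of these, 31 had a probe set assigned to that gene alone, among 19475 genes measured in this way. Acat2 had no such probe set and was not analysed here. The 31 were 17 sterol enzymes (6 of the mevalonate stage and 11 from squalene to cholesterol), 8 fatty acid enzymes, and 6 further genes, which were 5 regulators and the sterol carrier Stard4.

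The macrophages came from Wbp7+/- mice (HET) or Wbp7-/- mice (KO), on a mixed C57BL/6 and 129/Ola background, and were taken on day 7 of culture in medium conditioned by L929 cells. They were left untreated or given lipopolysaccharide (LPS), the bacterial ligand of Toll-like receptor 4, at 10 ug/ml for 2 h or 4 h. Each of the 6 groups had 3 arrays, and no wild-type cells were included, so each comparison between genotypes was against cells with 1 deleted copy. The labels state neither the age of the mice nor whether replicates came from separate animals, so p-values measure the spread between these arrays.

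In mammalian cells the SREBP transcription factors (Srebf1 and Srebf2) are held in the endoplasmic reticulum by Scap and the Insig proteins when sterols are plentiful. When sterols fall, Scap carries them to the Golgi, where they are cut and released to switch on these genes. The Srebf2 product acts mainly on cholesterol genes and the Srebf1 products mainly on fatty acid genes. Macrophages remodel both kinds of lipid after Toll-like receptor stimulation, and the products enter membranes, lipid mediators and oxysterols.

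SREBPs bind sterol regulatory elements, often beside a CCAAT box, the site of NF-Y. Promoter windows of 250 bases before the transcription start were available for 24 of the 31 genes (RefSeq, GRCm38.p6) and were searched on both strands for the letters TCACNCCAC, a form of the sterol regulatory element, and CCAAT. The windows of 4 genes on which the results below turn, or which hold the first motif, are shown 5′ to 3′ along the gene's strand, with matches to either motif in capitals (ATTGG is CCAAT on the other strand). They are Hmgcs1 at chr13:119690101-119690350 (plus strand), Msmo1 at chr8:64733579-64733828 (minus strand), Mvd at chr8:122443423-122443672 (minus strand) and Fasn at chr11:120824548-120824797 (minus strand).
Hmgcs1: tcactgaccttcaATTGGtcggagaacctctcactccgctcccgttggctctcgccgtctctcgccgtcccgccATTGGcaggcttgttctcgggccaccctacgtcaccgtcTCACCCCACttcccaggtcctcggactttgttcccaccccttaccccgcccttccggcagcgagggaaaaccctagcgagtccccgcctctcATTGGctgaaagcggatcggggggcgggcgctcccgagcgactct
Msmo1: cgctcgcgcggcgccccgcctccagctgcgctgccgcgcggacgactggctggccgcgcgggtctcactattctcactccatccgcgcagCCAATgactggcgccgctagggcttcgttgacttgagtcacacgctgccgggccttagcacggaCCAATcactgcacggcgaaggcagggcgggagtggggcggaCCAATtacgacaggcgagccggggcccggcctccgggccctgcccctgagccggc
Mvd: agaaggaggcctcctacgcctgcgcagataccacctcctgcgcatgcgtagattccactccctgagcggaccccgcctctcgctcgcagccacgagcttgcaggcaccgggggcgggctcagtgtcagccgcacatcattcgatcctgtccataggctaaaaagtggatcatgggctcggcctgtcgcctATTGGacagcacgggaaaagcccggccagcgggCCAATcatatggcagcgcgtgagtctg
Fasn: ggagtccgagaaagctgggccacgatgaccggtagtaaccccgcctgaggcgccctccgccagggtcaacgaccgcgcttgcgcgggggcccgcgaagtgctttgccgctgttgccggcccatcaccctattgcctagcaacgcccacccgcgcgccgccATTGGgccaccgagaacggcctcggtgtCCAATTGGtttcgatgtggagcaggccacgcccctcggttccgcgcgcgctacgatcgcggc

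CCAAT was present in the windows of 19 of the 24 genes (79.2%), beside 37.5% of the 27025 genes in the promoter table. It was in 14 of 14 sterol enzymes, in 4 of 5 regulators and in 1 of 5 fatty acid enzymes, the last being Fasn. A gene was counted if any of its windows held the letters. Dhcr7, Pmvk, Insig2, Srebf1 and Scap had more than 1 window, and each fatty acid enzyme had 1. Dhcr7, Pmvk, Insig2 and Srebf1 also had a window without CCAAT. The last C of the first motif could begin the second, but no window shown holds such an overlap. In Msmo1 the CCAAT copies began 160, 96 and 55 bases before the start, and in Mvd the copies lay 60 to 56 and 27 to 23 bases before it. Both Fasn copies nearest the start shared letters, one on each strand. TCACNCCAC was found in 1 of the 24 genes (4.17%), Hmgcs1, at 137 to 129 bases before the start, beside 1.22% of all genes in the table. A match describes the letters only, and the other members' windows may hold elements of other spelling.

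Values are log2 signals normalised across arrays by the submitters, so a difference of 1 is a doubling, and a level is comparable between samples of 1 gene but not between genes. Array medians lay between 8.05 and 8.13. The macrophage markers (8 genes) had medians of 13.02 to 13.82 by array. Markers of lymphocytes (5 genes, 5.70 to 6.43), mast cells (4 genes, 5.34 to 5.70) and erythroid cells (2 genes, 6.92 to 7.29) were near the array's lower quartile of 6.71 to 6.99 or under it. Those of stromal cells and adipocytes (6 genes) were at 7.31 to 8.04 and those of neutrophils (8 genes) at 7.90 to 9.08. These are medians, and single genes lay higher. By array, the highest gene was at 9.71 to 12.28 in the neutrophil list and at 8.68 to 9.61 in the stromal and adipocyte list. The Kmt2b probe set was not called between genotypes (KO minus HET -0.24 in untreated cells, SE 0.156, adjusted p = 1), although its untreated KO arrays (10.35, 10.41 and 10.47) lay just under the untreated HET arrays (10.97, 10.49 and 10.51). No source used here says which part of the transcript it covers, so it does not check the labels. In bulk RNA, fewer cells of a type and less RNA per cell cannot be told apart.

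The HET replicate 1 arrays stood apart from the other HET arrays. The SD of gene-by-gene differences was 0.43 to 0.53 in the 6 pairs with that replicate and 0.18 to 0.28 in the 12 other replicate pairs. Across 23 proliferation genes the median of HET replicate 1 minus the mean of replicates 2 and 3 was -2.92 without LPS, -2.67 after 2 h and -2.04 after 4 h. Its sterol enzymes differed from the other HET arrays by a median of 0.28, -0.20 and -0.33, and its fatty acid enzymes by -0.02, -0.55 and -1.0. Results that involve HET cells are given without it too where that changed a call or moved a value by over 1.5 times.

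Most of the synthesis genes of HET macrophages, in both branches, were lower after 4 h of LPS. At 4 h, 25 of the 31 genes were lower than in untreated HET cells and 0 were higher, by limma with Benjamini-Hochberg adjustment over all genes at an adjusted p under 0.05. Over all genes, 20.7% were lower and 15.7% higher. The 25 comprised 6 of 6 mevalonate enzymes, 10 of 11 later sterol enzymes, 6 of 8 fatty acid enzymes, and Stard4, Srebf1 and Insig2. The median log2 change was -0.98 over the sterol enzymes, -1.36 over the fatty acid enzymes and -0.31 over the regulators and Stard4, beside 0.09 over all genes. The gap between the branches was not tested.

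**Figure D1:**
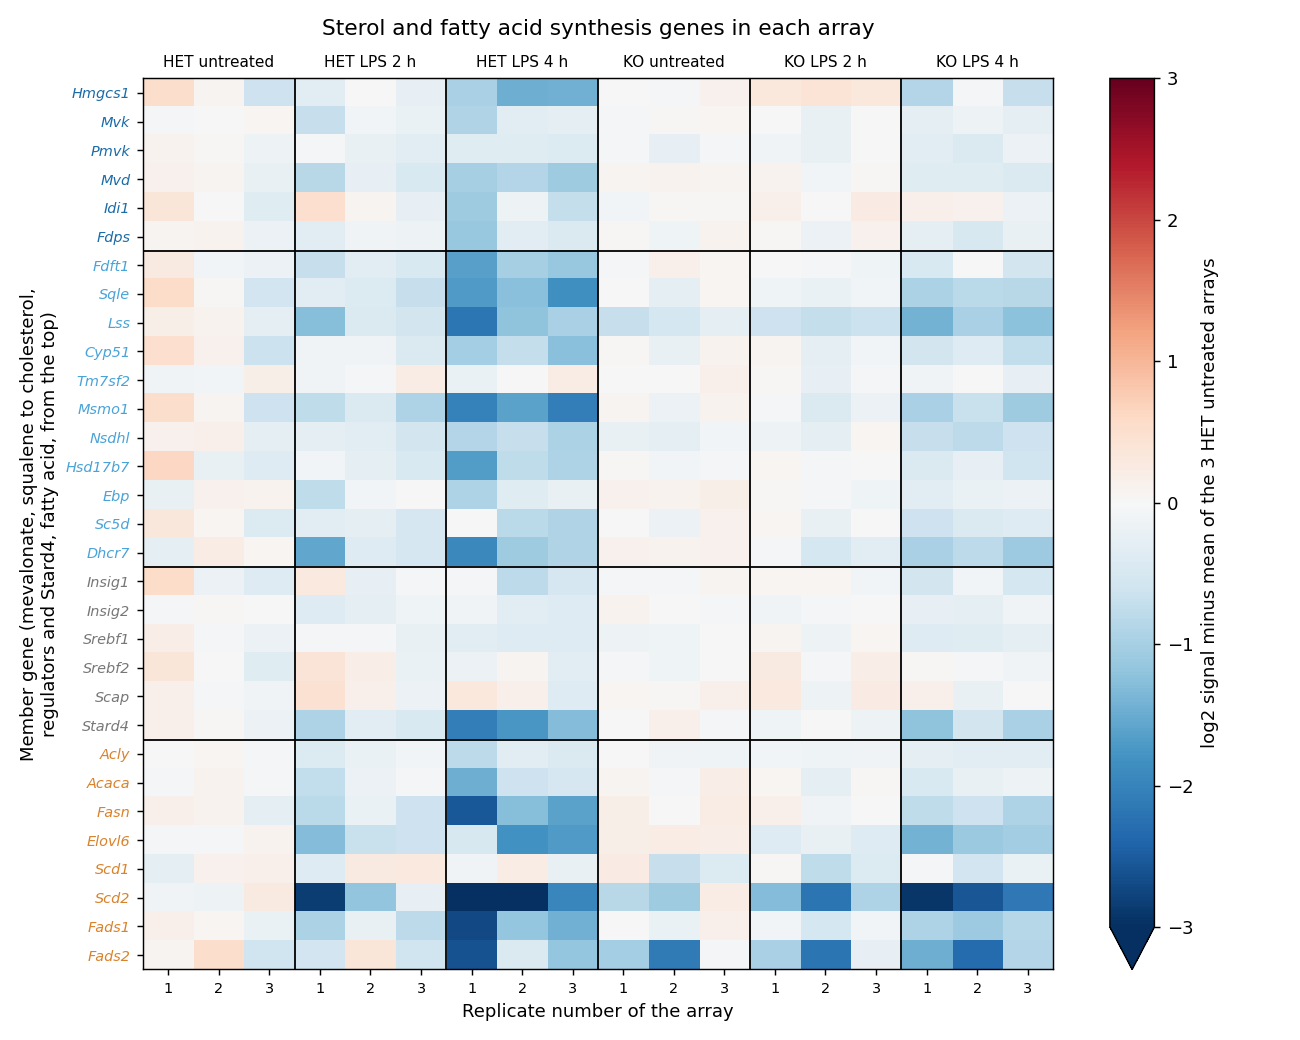
Heat map of log2 signal for the 31 genes (rows, grouped by role) in the 18 arrays (columns, by genotype, LPS time and replicate), each value set against the gene's mean in untreated HET arrays. Colours are clipped at -3. Most rows are blue in the 3 columns of HET LPS 4 h and paler in those of KO LPS 4 h, and Scd2 in HET LPS 4 h is beyond the clip in replicates 1 and 2.

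Within the mevalonate stage, which builds isoprenoid units from acetyl-CoA, Hmgcs1, the HMG-CoA synthase, fell by 1.29 on the log2 scale (SE 0.240, adjusted p = 0.000644). Mvd, which makes isopentenyl pyrophosphate, fell by 0.98, and Idi1, the isomerase of that product, fell by 0.64. Fdps, the farnesyl pyrophosphate synthase, fell by 0.63, and the kinases Mvk and Pmvk fell by 0.52 and 0.38.

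Among enzymes from squalene onwards the largest falls were in the sterol C4-methyl oxidase Msmo1 (-1.90), the squalene epoxidase Sqle (-1.60), the lanosterol synthase Lss (-1.45) and Dhcr7, which makes cholesterol from 7-dehydrocholesterol (-1.30). Fdft1, the squalene synthase, fell by 1.26, Hsd17b7 fell by 1.12 and the lanosterol demethylase Cyp51 fell by 1.00. Nsdhl, Sc5d and Ebp changed by -0.85, -0.57 and -0.50. Tm7sf2, a sterol C14 reductase, did not pass the test, at 0.01 (SE 0.125), or 0.06 without HET replicate 1.

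The fatty acid branch held both the largest fall of the 31 and, in Scd1, one of the smallest changes. Scd2, a stearoyl-CoA desaturase, fell by 3.20 on the log2 scale, a 9.20-fold difference. Fasn, the fatty acid synthase, fell by 1.80, the delta-5 desaturase Fads1 fell by 1.77 and the elongase Elovl6 fell by 1.32. Acaca, the acetyl-CoA carboxylase, fell by 0.87 and Acly, which supplies cytosolic acetyl-CoA, fell by 0.52. Scd1, a second desaturase, had group means of 6.82 to 7.27, close to the lower quartile of the arrays. Its change was -0.03, or -0.14 without HET replicate 1. Fads2, the delta-6 desaturase, had a change of -1.41 that did not pass the test (SE 0.626, adjusted p = 0.0895), and its 3 HET arrays at 4 h lay at 8.39, 10.58 and 9.85.

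Most regulators had smaller changes, and 2 of the 5 passed the test. Srebf1 fell by 0.36 (adjusted p = 0.00922), from 10.50, 10.27 and 10.13 in untreated HET cells to 9.98, 9.92 and 9.92 at 4 h. Insig2 fell by 0.27 (adjusted p = 0.0258). Insig1 had a change of -0.45 (SE 0.225, adjusted p = 0.128), Srebf2 of -0.14 and Scap of 0.02. Without HET replicate 1, Srebf2 was at 0.07 and Scap at -0.04. These are transcript levels and say nothing of the cleavage by which SREBPs are activated. The carrier Stard4 is described with the genotype comparison.

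Without the HET replicate 1 arrays the HET medians at 4 h were -0.74 for the sterol enzymes and -0.99 for the fatty acid enzymes, and 23 genes were called, beside 21.6% of all genes lower. Fdps and Idi1 were then not called, at -0.33 (adjusted p = 0.0590) and -0.25 (adjusted p = 0.302), Hsd17b7 was at -0.54 and still called, and Fads2 was at -0.76. The medians within each HET culture, taken by replicate number, were -1.42, -0.85 and -0.61 for sterol enzymes and -2.06, -1.09 and -0.90 for fatty acid enzymes. All lay below 0, with replicate 1 lowest. The proliferation genes had HET medians of -0.59, -0.91 and -0.90 in the same cultures and 1 of 23 was called lower. Markers of other cells had higher fitted values at 4 h in HET: 8 of 8 neutrophil genes were above 0 (median 0.50, 2 called), 5 of 5 lymphocyte genes (median 0.22, 2 called), 6 of 6 stromal and adipocyte genes (median 0.29, 1 called), 4 of 4 mast cell genes (median 0.14, 0 called) and 2 of 2 erythroid genes (median 0.14, 0 called). Over all genes, 11479 of 19475 were above 0 and 15.7% were called higher. The lower quartiles of the HET arrays also rose, from 6.84, 6.78 and 6.72 untreated to 6.99, 6.87 and 6.88 at 4 h. The lymphocyte, mast cell and erythroid lists lay near or under that level. The part of these lists in the result was not tested.

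At 2 h fewer genes were called in HET cells. Mvd (-0.51, adjusted p = 0.0105), Nsdhl (-0.39, adjusted p = 0.0477) and Elovl6 (-0.87, adjusted p = 0.0336) were lower, 3 of 31 genes beside 10% of all genes, and 0 of 31 were higher beside 5.56%. Medians were -0.32 for sterol enzymes and -0.44 for fatty acid enzymes. Without HET replicate 1 they were -0.20 and -0.24, Mvd (-0.29, adjusted p = 0.128) and Nsdhl (-0.38, adjusted p = 0.127) were not called, Elovl6 still was, and Dhcr7 was called in addition (-0.58, adjusted p = 0.0111). With the culture as a replicate block, 12 genes (random effect) or 15 (fixed effect) were called lower, beside 16% and 18.1% of all genes. The unblocked count was 0 without HET LPS 2 h replicate 1, 1 without untreated HET replicate 1 or 2, 6 without HET LPS 2 h replicate 2, and 10 or 5 without HET LPS 4 h replicate 1 or 3.

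In KO macrophages after 4 h of LPS, 10 of 31 genes were lower (9.28% of all genes) and 0 higher (6.48% of all genes), against 25 lower in HET. This gap in counts depended on the model. Without HET replicate 1 the count was 23 in each genotype, beside 3512 (KO) and 4197 (HET) of 19475 genes lower. With only the arrays of each contrast the KO count was the higher. The difference in response itself is tested below. The 10 in KO were Mvd, Sqle, Msmo1, Nsdhl and Dhcr7 of the sterol enzymes, Fasn, Elovl6, Scd2 and Fads1 of the fatty acid enzymes, and Stard4. Median changes were -0.46 for sterol enzymes, -0.70 for fatty acid enzymes and -0.24 for the regulators and Stard4, beside 0.02 over all genes. At 2 h, 0 of 31 passed in either direction, and 0 had an unadjusted p under 0.05, beside 12% of all genes (adjusted calls over all genes 2% higher and 1.35% lower). Medians at 2 h were -0.07 for sterol enzymes and -0.13 for fatty acid enzymes.

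The KO call count at 4 h depended on the estimate of spread. It was 16 with the culture as a random replicate block, 17 with it as a fixed block and 23 when the HET replicate 1 arrays were left out, an alternative in which the KO values are the same. The share of all genes called lower moved with it, from 9.28% to 15.7%, 17.9% and 18%. It was 5 or 3 without untreated KO replicate 1 or 3 and 4 or 3 without KO LPS 4 h replicate 1 or 3. Within KO cultures the 4 h medians were -0.46, -0.25 and -0.53 for sterol enzymes and -0.73, -0.42 and -0.91 for fatty acid enzymes, all nearer 0 than the same branch's median in HET replicates 1 and 2. The fatty acid median of KO replicate 3 lay as low as that of HET replicate 3.

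**Figure D2:**
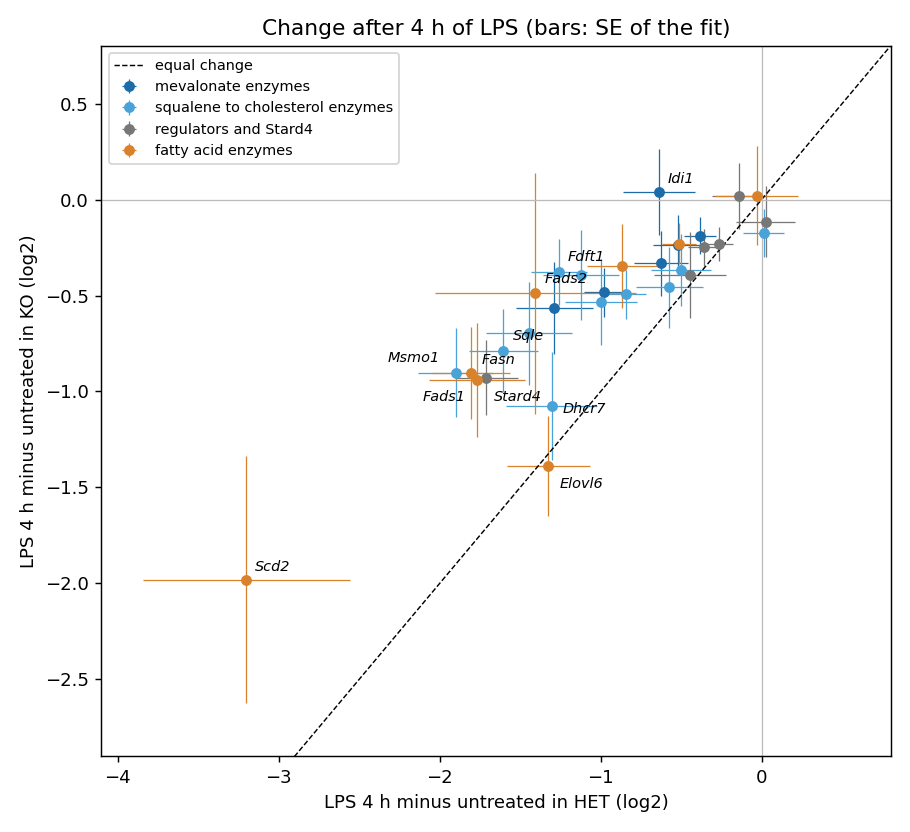
Log2 change from untreated to LPS 4 h in KO against HET for the 31 genes, coloured by role, with bars for the SE of the fit and a dashed line of equal change. The 28 genes above the line had a smaller fall, or a higher value, in KO; Elovl6 and Tm7sf2 are among the 3 below it.

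The difference between the 2 genotypes in the LPS response was tested directly, and 0 of 31 genes passed at 2 h or at 4 h by limma. Over all genes the adjusted calls were 0% in either direction at 2 h, and 0.0103% higher and 0.0411% lower at 4 h. At an unadjusted p under 0.05 there were 2 genes at 2 h (5.64% of all genes) and 9 at 4 h (7.2% of all genes). The fitted difference was above 0, meaning a smaller fall or a higher value in KO, for 28 of 31 genes at each time, beside 11232 of 19475 genes at 2 h and 9027 at 4 h. Medians at 4 h were 0.46 for sterol enzymes, 0.67 for fatty acid enzymes and 0.08 for regulators and Stard4, beside -0.02 over all genes. Without HET replicate 1 these were 0.23, 0.28 and 0.01. In the same order the medians at 2 h were 0.35, 0.27 and 0.13, or 0.15, 0.05 and 0.08 without that replicate. Without it, Acaca, Cyp51, Ebp, Insig1 and Scd2 also turned below 0 at 2 h. Insig1 and Srebf2 did so at 4 h, while Elovl6 turned above 0. In simulated data with independent arrays the test recovered 59% of differences in response of 1 log2 unit and 14% of those of 0.5. The real arrays deviated together by replicate number, so these rates may not hold for them. With the culture as a random replicate block, 0 of 31 genes were again called at each time. Over all genes that fit called 12 higher and 23 lower at 2 h, and 51 higher and 47 lower at 4 h.

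Single genes spanned a range in this difference. Fdft1 had the smallest p, at 0.88 (SE 0.242, unadjusted p = 0.00241, adjusted p = 0.408), and 0.56 without HET replicate 1. Msmo1 followed at 1.00 (SE 0.330, adjusted p = 0.49), or 0.66 without that replicate. Idi1, which had a change of 0.04 in KO against -0.64 in HET, was at 0.68 (SE 0.316, adjusted p = 0.692), or 0.29 without it. Elovl6 fell by 1.32 in HET and by 1.39 in KO on the log2 scale, with a difference of -0.07 (SE 0.368) that turned to 0.38 without HET replicate 1. For Dhcr7, with falls in both genotypes, the difference was 0.23 (SE 0.399), or 0.05 without it. These SEs and p-values come from the fit without a replicate block. With the culture as a random block, limma gave an adjusted p of 0.0816 for Fdft1 and 0.109 for Msmo1.

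The genotypes were next compared at each time. In untreated cells 0 of 31 genes were called (0.0565% of all genes higher and 0.359% lower). Of the 31, 0 had an unadjusted p under 0.05 beside 4.44% of all genes, and their median was -0.00. Without HET replicate 1 the sterol enzyme median went from 0.00 to 0.16, and that of the regulators and Stard4 from 0.01 to 0.11. The fatty acid median went from -0.04 to -0.01. Again 0 of 31 were called, beside 14 higher and 104 lower of 19475 genes. Before LPS, several sterol enzymes spread more between the HET arrays than between the KO arrays: the SD over 3 arrays was 0.59 in HET and 0.16 in KO for Msmo1, 0.58 and 0.17 for Cyp51, and 0.57 and 0.19 for Sqle. HET replicate 1 was the highest and replicate 3 the lowest in all these. The medians of sterol enzymes were 10.21 to 10.96 across untreated HET arrays and 10.65 to 10.86 across untreated KO arrays.

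**Figure D3:**
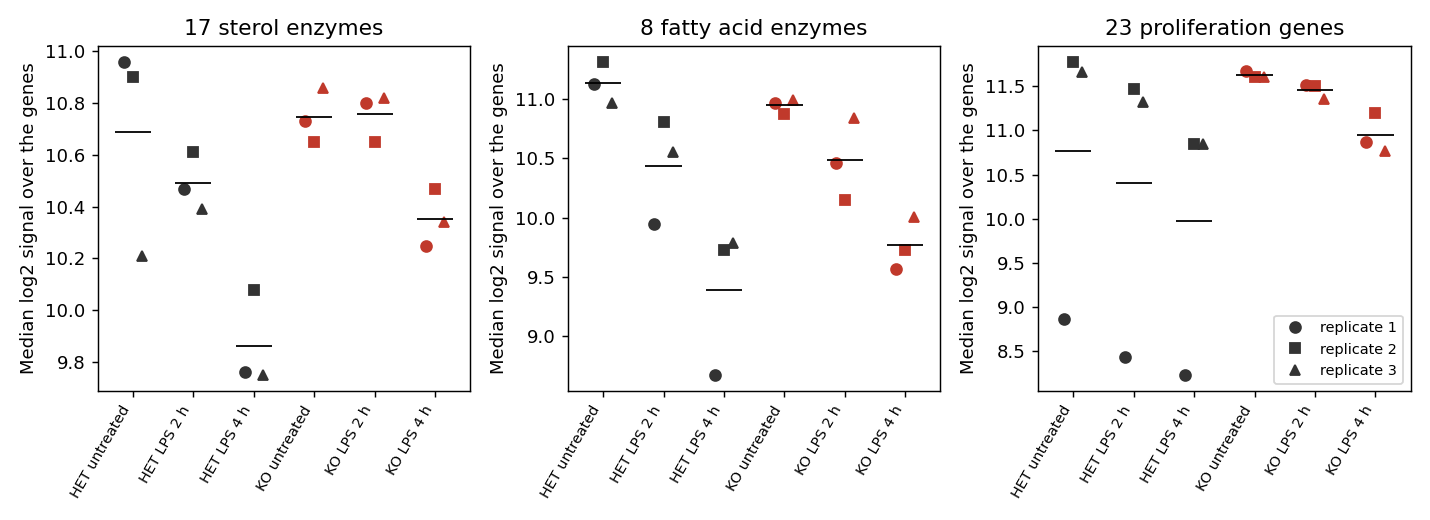
Median log2 signal in each array over the 17 sterol enzymes, the 8 fatty acid enzymes and the 23 proliferation genes, by group; points are arrays (shape gives the replicate, black HET, red KO) and horizontal lines the mean of 3 arrays. Sterol enzyme medians were 9.75 to 10.08 in HET LPS 4 h and 10.25 to 10.47 in KO LPS 4 h; for fatty acid enzymes they were 8.68 to 9.79 and 9.57 to 10.01. HET replicate 1 is the low point of each HET group in the proliferation panel.

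After 4 h of LPS, 5 of 31 genes were higher in KO than in HET, beside 1.32% of all genes, and 0 were lower, beside 1.1%. They were Mvd, Fdft1 and Msmo1 (3 of 17 sterol enzymes), Stard4 (1 of 6) and Fasn (1 of 8 fatty acid enzymes). Medians were 0.35 for sterol enzymes, 0.40 for fatty acid enzymes and 0.06 for regulators and Stard4, beside -0.06 over all genes. Without HET replicate 1 the medians of these lists were 0.39, 0.18 and 0.12. That alternative called 7 genes, beside 2.92% of all genes higher: Stard4 was not called, and Elovl6 (0.55, adjusted p = 0.00949), Hmgcs1 (0.90, adjusted p = 0.0298) and Hsd17b7 (0.42, adjusted p = 0.0365) were. KO arrays did not overlap HET arrays, lying above them, for 12 of 31 genes, beside 13.5% of all genes. After 2 h, Mvd was called higher (1 of 31, beside 1.22% of all genes) and 0 were lower (1.54% of all genes), with 11 of 31 above without overlap, beside 12.1%. Proliferation genes had KO minus HET medians of 0.84 before LPS, 1.00 after 2 h and 1.01 after 4 h, with 0 of 23 called at each time. These medians rested on HET replicate 1. By array (replicates 1, 2 and 3) the untreated levels were 8.87, 11.78 and 11.66 in HET and 11.67, 11.60 and 11.60 in KO. At 4 h they were 8.23, 10.85 and 10.85 in HET and 10.87, 11.20 and 10.77 in KO. Neutrophil genes had a KO minus HET median of -0.28 at 4 h (3 of 8 above 0, 0 called, beside 7888 of 19475 genes above 0), with a range of -0.45 to 1.08. The highest value in that list was 1.22 in untreated cells and 1.15 at 2 h. Lymphocyte genes had a median of -0.19 (1 of 5 above 0) and stromal and adipocyte genes of -0.18 (0 of 6 above 0), with 0 called. The part of these lists in the result was not tested.

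Mvd, the mevalonate pyrophosphate decarboxylase, had signals in HET of 9.68, 9.63 and 9.32 untreated, 8.72, 9.30 and 9.08 at 2 h, and 8.55, 8.67 and 8.48 at 4 h (replicates 1, 2 and 3). In KO they were 9.62, 9.66 and 9.63 untreated, 9.66, 9.45 and 9.59 at 2 h, and 9.18, 9.18 and 9.10 at 4 h. The genotypes overlapped before LPS and were separate at both LPS times, with the HET arrays low from 2 h and the KO arrays lower at 4 h than before. KO minus HET was 0.53 at 2 h (SE 0.126, adjusted p = 0.0353) and 0.59 at 4 h (SE 0.126, adjusted p = 0.0234). Without HET replicate 1 the values were 0.38 (adjusted p = 0.0877) and 0.58 (adjusted p = 0.00733).

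Fdft1 makes squalene, the first step committed to sterols. Its HET signals were 11.73, 11.37 and 11.27 untreated, 10.77, 11.15 and 10.99 at 2 h, and 9.83, 10.45 and 10.31 at 4 h. Its KO signals were 11.40, 11.61 and 11.51 untreated, 11.45, 11.41 and 11.33 at 2 h, and 11.01, 11.46 and 10.91 at 4 h. Each HET array was lower than the one before it at both steps, and KO replicate 2 stayed near its untreated value. KO minus HET at 4 h was 0.93 (SE 0.171, adjusted p = 0.0101), a 1.91-fold difference. The gene's other probe set gave 1.01 (adjusted p = 0.0202). In KO the 4 h change of -0.38 did not pass (adjusted p = 0.171), though by replicate number it was -0.39, -0.15 and -0.60. Without the HET replicate 1 arrays, which leaves the KO value as it is, it passed (limma, adjusted p = 0.0309).

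Msmo1, which removes the C4 methyl groups of lanosterol derivatives, had HET signals of 12.35, 11.91 and 11.19 untreated, 11.06, 11.38 and 10.88 at 2 h, and 9.78, 10.22 and 9.75 at 4 h. KO signals were 11.91, 11.64 and 11.93, then 11.76, 11.38 and 11.65, then 10.85, 11.16 and 10.76 at the same times. It fell in both genotypes by 4 h, and every KO array then lay above every HET array. The change was -1.90 in HET (adjusted p = 1.6e-05) and -0.90 in KO (adjusted p = 0.0142), and KO minus HET at 4 h was 1.01 (SE 0.233, adjusted p = 0.0344).

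Stard4 carries cholesterol between membranes and is an SREBP target. HET signals were 9.74, 9.64 and 9.41 untreated, 8.66, 9.26 and 9.15 at 2 h, and 7.53, 7.84 and 8.29 at 4 h. KO signals were 9.58, 9.75 and 9.53, then 9.46, 9.62 and 9.45, then 8.40, 9.04 and 8.63. The groups were separate at 4 h by a narrow margin, between HET replicate 3 and KO replicate 1. It fell in both genotypes, by 1.71 on the log2 scale in HET (adjusted p = 8.94e-06) and by 0.93 in KO (adjusted p = 0.00382). KO minus HET at 4 h was 0.80 (SE 0.197, adjusted p = 0.0442), and 0.62 without HET replicate 1 (adjusted p = 0.0541). The call was also lost with the culture as a random replicate block (adjusted p = 0.0539).

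Fasn, which builds palmitate, had HET signals of 11.47, 11.43 and 11.06 untreated, 10.51, 11.11 and 10.69 at 2 h, and 8.78, 10.04 and 9.72 at 4 h. KO signals were 11.50, 11.33 and 11.55, then 11.48, 11.21 and 11.33, then 10.56, 10.71 and 10.39. HET replicate 1 was the lowest array at 4 h, and the KO arrays lay above all HET arrays. KO minus HET at 4 h was 1.04 (SE 0.241, adjusted p = 0.0346), a 2.06-fold difference, and 0.68 without HET replicate 1 (adjusted p = 0.0258).

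**Figure D4:**
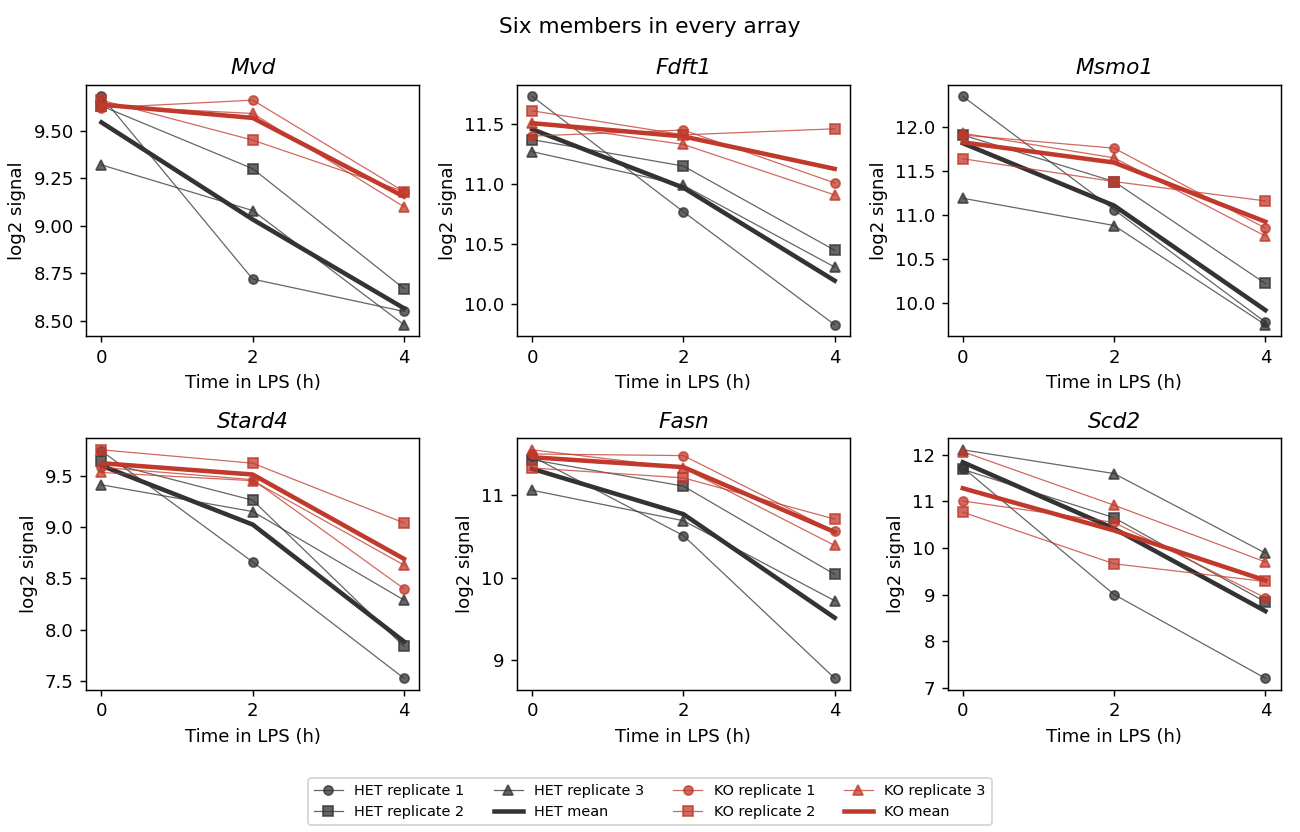
Log2 signal of Mvd, Fdft1, Msmo1, Stard4, Fasn and Scd2 in every array at 0, 2 and 4 h of LPS, with thin lines joining arrays of the same genotype and replicate number and thick lines the group means (black HET, red KO). At 4 h the KO points lie above all HET points for every gene shown except Scd2.

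Scd2 had the largest fall of the set and the widest spread. HET signals were 11.73, 11.69 and 12.11 untreated, 9.0, 10.65 and 11.60 at 2 h, and 7.20, 8.84 and 9.89 at 4 h. KO signals were 11.01, 10.77 and 12.07, then 10.55, 9.66 and 10.92, then 8.93, 9.28 and 9.70. Every replicate was lower at each step, and the genotypes overlapped at each time. The 4 h change was -3.20 in HET (SE 0.643, adjusted p = 0.00118) and -1.98 in KO (adjusted p = 0.0483), and the difference of 1.22 between them (SE 0.909) did not pass (adjusted p = 0.834) and was 0.56 without HET replicate 1. KO minus HET at 4 h was 0.66 (adjusted p = 0.526), or -0.06 without that replicate.

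Other genes came close to the threshold at 4 h. KO minus HET was 0.74 for Sqle (adjusted p = 0.0821), 0.75 for Hmgcs1 (adjusted p = 0.107), 0.70 for Hsd17b7 (adjusted p = 0.124) and 0.67 for Idi1 (adjusted p = 0.12). The values for Fads1 and Acaca were 0.81 and 0.59, both at an adjusted p of 0.152, and without HET replicate 1 they were 0.34 and 0.29. Insig1, Insig2, Srebf1, Srebf2 and Scap differed by -0.06 to 0.10, and by up to 0.25 (Insig1) without that replicate, with none called.

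The 5 calls at 4 h rested on few arrays. No gene was called whichever array was left out: the count was 0 without KO LPS 4 h replicate 2, 1 without KO LPS 4 h replicate 3 or HET LPS 4 h replicate 1, 2 without KO LPS 4 h replicate 1, and 3 without HET LPS 4 h replicate 3. Leaving out untreated KO replicate 1 or 3 left 3 or 2, and KO LPS 2 h replicate 3 left 2. A fit to the 6 arrays of the contrast alone called 0 of the 31 (0.0411% of all genes higher), and array weights called 8 (3.93% of all genes higher). Fdft1 was, among single arrays, lost only without KO LPS 4 h replicate 2 (adjusted p = 0.0703). The Mvd call at 2 h was lost with the culture as a random replicate block (adjusted p = 0.0511), under both other scalings, without HET replicate 1, and without any 1 of 7 arrays: HET LPS 2 h replicates 1 and 3, KO LPS 2 h replicates 1, 2 and 3, and untreated KO replicates 1 and 3. By contrast, 20 of the 25 falls in HET at 4 h were called whichever array was left out, and those of Ebp, Idi1, Insig2, Mvk and Sc5d were not.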

How the data were processed

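RNA from 18 macrophage samples was hybridised to Affymetrix whole-transcript arrays. The deposited table holds log2 values per probe set, normalised across arrays with RMA in Partek 6.5 per the submitters' processing notes; no source used here gives other settings. Of 25344 probe sets, 21137 named 1 gene, 1530 several and 2677 none in the platform's table; the last 2 kinds were left out, and of 915 genes with several probe sets the one with the highest mean was used.

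Genotype and LPS groups came from the sample titles. limma 3.58.1 (R 4.3.3) fitted 6 group means to 18 arrays (12 residual degrees of freedom), with Benjamini-Hochberg adjustment over 19475 genes and calls at an adjusted p under 0.05. Lists are described by counts and medians, without a test. Members and lists were chosen with earlier results of these data known. Genes described array by array were those called between genotypes and the 3 largest falls among LPS calls (no gene of the set was called as rising). Genes outside the set come from other-pathway and marker lists, by size of change.

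On simulated data of 19475 genes, drawn as independent arrays, the KO minus HET comparison at 4 h recovered 86% of changes of 1 log2 unit and 41% of 0.5. Arrays of 1 genotype with the same replicate number deviated together from their group means (r 0.32 to 0.80 in 18 pairs), while those of different genotypes did not do so throughout (r -0.35 to 0.39 in 27 pairs). The numbers were therefore taken to mark cultures within a genotype, a reading drawn from the data, and blocked fits were run as alternatives. Other alternatives were centring, quantile scaling, leaving out dim genes, averaging probe sets, a robust trend, array weights, fits to the contrast's own arrays, a minimum change of 2-fold, and leaving out arrays. The number of arrays limits the precision. Promoters were read from RefSeq (GRCm38.p6); figures used matplotlib 3.10.9 in Python 3.11.15.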

Additional observations from a re-analysis of the deposited data

How the results depend on the processing

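The counts of genes called depended on the model. With only the arrays of each contrast, KO minus HET gave 0 genes at 2 h and at 4 h, LPS in HET gave 0 at 2 h and 15 at 4 h, and LPS in KO gave 2 and 18. Array weights gave 8 for KO minus HET at 4 h, 6 for LPS in HET at 2 h, and 1 and 21 for LPS in KO at 2 h and 4 h. A 2-fold minimum left 0 and 2 for KO minus HET at 2 h and 4 h, 0 and 12 for LPS in HET, and 3 for LPS in KO at 4 h. Median centring and quantile scaling each gave 0 for KO minus HET at 2 h, quantile scaling gave 1 for LPS in HET at 2 h, and leaving out dim genes gave 6 there. The culture as a random replicate block gave 0 for KO minus HET at 2 h, 12 for LPS in HET at 2 h and 16 for LPS in KO at 4 h. As a fixed block it gave 15 and 17 for those LPS responses, and the replicate number as a block over all arrays gave 8 for LPS in HET at 2 h. No other count of calls moved by over 1.5 times under a block. Without the HET replicate 1 arrays the counts were 0 for KO minus HET at 2 h, and 2 and 23 for LPS in KO at 2 h and 4 h. Leaving out single arrays gave 0 to 1 and 0 to 6 for KO minus HET at 2 h and 4 h, 0 to 10 and 21 to 25 for LPS in HET, and 3 to 12 for LPS in KO at 4 h. KO minus HET in untreated cells, and both differences in response, stayed at 0 under every alternative run. The Scd2 difference in the 2 h response, 0.52, turned to -0.14 without the HET replicate 1 arrays and to -0.19 without HET LPS 2 h replicate 1 (-0.19 to 1.11 over single arrays left out). Of the branch medians recomputed, 766 moved by less than the spread between arrays and 8 by more. Many of the 766 could not move, since a block, or leaving out an array outside the contrast, keeps the fitted values. The spread (SD 0.21 for sterol and 0.36 for fatty acid enzymes) also included HET replicate 1. Within it, the fatty acid median of KO minus HET at 2 h went from 0.19 to 0.04 without that replicate. The tally therefore does not show that the medians are stable. With dim genes left out, the median of all genes in the 4 h HET response was -0.16. The all-gene share moved with these counts. For genes called lower by LPS in KO at 4 h it was 9.28% in the fit as reported, 16.7% with array weights and 17.1% with only the arrays of the contrast. With those arrays only, 2478 of 19475 genes were lower by LPS in HET at 4 h, beside 4028 as reported. By LPS in HET at 2 h the lower counts were 606 and 1950, and in KO at 2 h 918 and 262. For KO minus HET at 4 h the higher counts were 8 and 257. All genes were not counted under the 2-fold minimum. The cause of these shifts was not tested beyond the change of arrays or genes that each alternative makes.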

Other observations

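Of 8 genes of sterol handling outside the 31, 3 fell in HET at 4 h, beside 20.7% of all genes: Tmem97, a sterol-responsive membrane protein (-1.15), Npc1, which exports cholesterol from lysosomes (-0.61), and Mbtps1, the protease that makes the first SREBP cut (-0.57). Ch25h makes 25-hydroxycholesterol, an oxysterol that blocks SREBP release. By limma it rose in HET by 2.10 at 2 h (adjusted p = 0.0358) and by 2.53 at 4 h (adjusted p = 0.00601). In KO it rose by 2.27 at 4 h (adjusted p = 0.0226). It was the 1 gene of the 8 called higher each time, beside 5.56%, 15.7% and 6.48% of all genes. In KO at 4 h Npc1 fell by 0.40, and it was the 1 gene of the 8 called lower, beside 9.28% of all genes. Between the genotypes 0 of the 8 were called at any time by limma, and 0, 0 and 1 had an unadjusted p under 0.05 in untreated cells, at 2 h and after 4 h, beside 4.44%, 15% and 20.2% of all genes. Adjusted calls over all genes were 0.0565% higher and 0.359% lower in untreated cells, 1.22% and 1.54% at 2 h, and 1.32% and 1.1% at 4 h.

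Among 14 further genes of fatty acid synthesis and use, 4 fell in HET at 4 h, beside 20.7% of all genes. They were Gpam, the first acyltransferase of glycerolipid synthesis (-0.82), Lpin1, a phosphatidate phosphatase (-0.68), Elovl1, which elongates very long chains (-0.59), and Agpat2, a second acyltransferase (-0.34). Gpam, Lpin1 and Agpat2 were already lower in HET at 2 h, at -0.79, -0.41 and -0.38. Of the 14, 3 were called lower then, beside 10% of all genes. In KO at 4 h Lpin1 fell by 0.90 and Elovl1 by 0.36, with 2 of the 14 called lower beside 9.28% of all genes. Between the genotypes 0 of the 14 were called at any time by limma, beside the all-gene shares of adjusted calls given above. An unadjusted p under 0.05 was reached by 1 of the 14 before LPS, by 5 at 2 h and by 4 after 4 h. Over all genes the shares were 4.44%, 15% and 20.2%.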
